A study of Mus musculus with 22 samples.

Results

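The genes described here encode the constant and variable parts of the gamma-delta T cell receptor and proteins typical of the cells that carry it. They are Tcrg-C1, Tcrg-C2 and Tcrg-C4 (constant segments of the gamma chain), Trgv2 (a variable segment of the gamma chain), Trdc (the constant gene of the delta chain), Cd163l1, Sox13 and Blk. They were chosen by name as 8 of the 43430 genes of each table, and 7 of them were measured here. Trdc was not analysed here, and the delta chain is described from its other segments.

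The study measured RNA in sorted CD45.1+ thymocytes with both CD4 and CD8 (double-positive cells), from mice with and without a deletion of E2a. E2a, gene symbol Tcf3, encodes E proteins, a class of helix-loop-helix transcription factors. All mice carried floxed E2a alleles (E2aF/F), and there were 22 libraries in 7 groups. At 4 weeks of age there were 3 VavCre E2aF/F libraries (Vav knockouts) against 3 E2aF/F libraries called WT (V), and 3 LckCre E2aF/F libraries (Lck knockouts) against 3 E2aF/F libraries called WT (L). At 8 weeks there were 4 libraries of VavCre E2aF/F mice transplanted with WT bone marrow (transplanted Vav knockouts), 3 of Vav knockouts without treatment and 3 of WT (V). Vav promoters are active across blood cell lineages and the Lck promoter in developing T cells, so the Cre drivers differ in the stage from which E2a can be lost. The WT genotypes name no Cre. The transplanted mice were sublethally irradiated and analysed 4 weeks after transplantation, and the labels do not say which of their cells carried CD45.1. The labels name no animals behind the replicates; p-values therefore reflect only how these libraries vary, which may in part be technical. In bulk RNA, fewer cells of a type and less RNA per cell cannot be told apart.

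Gamma-delta T cells recognise antigen with a receptor of a gamma and a delta chain in place of the alpha and beta chains of most T cells. Each chain is assembled by joining variable and joining segments (and diversity segments in the delta chain) upstream of a constant segment. The delta segments lie inside the alpha chain locus and are deleted when an alpha chain is assembled. E proteins bind DNA at E-boxes and take part in opening the receptor loci for recombination, and most gamma-delta T cells of the mouse carry neither CD4 nor CD8.

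In the mm10 build the gamma locus lies on chromosome 13. Going along the plus strand, the variable segments Tcrg-V7, Tcrg-V4, Tcrg-V6 and Tcrg-V5 precede Tcrg-C1 (ENSMUSG00000076749, 19214103 to 19217024, plus strand). Tcrg-V3 and Tcrg-C3 follow. Next come Tcrg-C2 (ENSMUSG00000076752, 19304649 to 19307551) and Trgv2 (ENSMUSG00000076754, 19336573 to 19337167), both on the minus strand. Tcrg-V1, the joining segment Trgj4 and Tcrg-C4 (ENSMUSG00000076757, 19344558 to 19352756) are on the plus strand at the far end.

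The constant segments are similar enough for reads to be shared, so the first 150 bases of each are shown, from the GENCODE M21 transcripts (mm10), 5′ to 3′, with bases that differ from Tcrg-C2 in capitals:
Tcrg-C1: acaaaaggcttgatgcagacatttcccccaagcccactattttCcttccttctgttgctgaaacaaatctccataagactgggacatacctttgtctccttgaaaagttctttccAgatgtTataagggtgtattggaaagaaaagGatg
Tcrg-C2: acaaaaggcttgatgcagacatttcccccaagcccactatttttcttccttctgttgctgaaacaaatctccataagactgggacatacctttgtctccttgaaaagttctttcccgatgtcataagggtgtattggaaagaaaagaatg
Tcrg-C4: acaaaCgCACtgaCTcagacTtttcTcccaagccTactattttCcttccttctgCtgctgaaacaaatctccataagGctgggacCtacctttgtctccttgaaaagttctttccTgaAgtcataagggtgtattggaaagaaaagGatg

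In that stretch Tcrg-C1 differed from Tcrg-C2 at 4 bases and Tcrg-C4 at 16. Over all aligned bases Tcrg-C1 and Tcrg-C2 were 96.1% identical, and 17.9% of the 50-base windows of Tcrg-C1 occurred unchanged in Tcrg-C2. Tcrg-C4 was 79.5% identical to Tcrg-C1 and 78.5% identical to Tcrg-C2, and no 50-base window of it (0.0%) occurred in either. Trgv2 and Tcrg-V1 were 95.5% identical, with 7.01% of the Trgv2 windows found in Tcrg-V1. A level of Tcrg-C1 or Tcrg-C2, or of Trgv2 or Tcrg-V1, is therefore uncertain by itself where the counting split or dropped shared reads, whereas Tcrg-C4 shared no such window with the other constant segments.

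Values are FPKM, which divide fragments by gene length and library depth, as the authors deposited them. Low values implied 5501000 (Lck knockout replicate 2) to 37244000 reads per library. Tcf3, the deleted gene, had 1.15 to 2.32 FPKM in the 13 libraries with Cre and 6.39 to 8.22 FPKM in the 9 WT libraries. Cd4 was at 96.8 to 389 FPKM with Cre and 362 to 460 FPKM in WT, and Cd8a at 157 to 554 FPKM with Cre and 471 to 545 FPKM in WT, so both markers of the sort were present in every library. Differences were tested on log2(FPKM + 1) with limma over all genes that reached 1 FPKM in at least 3 libraries, and a gene was called at an adjusted p (Benjamini-Hochberg over all genes tested) under 0.05. The scale understates changes of low genes. The 3 tables were normalized separately, so a level set beside that of another table carries this limit.

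In Vav knockouts at 4 weeks the gamma chain was high in every library. Tcrg-C2 had 14.7, 26.7 and 27.1 FPKM in Vav knockouts, against 1.63, 2.02 and 1.86 FPKM in WT (V). Tcrg-C1 had 7.36, 41.7 and 4.66 FPKM in Vav knockouts, against 1.87, 1.36 and 1.24 FPKM in WT (V). Tcrg-C4 had 3.72, 7.74 and 3.04 FPKM in Vav knockouts, against 0.169, 0.348 and 0.527 FPKM in WT (V). For each constant segment the lowest knockout lay above the highest WT library, and Vav knockout replicate 2 was highest for Tcrg-C1 and Tcrg-C4.

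Trgv2, the variable segment next to Tcrg-C2, varied least. It had 11.3, 12.7 and 12.7 FPKM in Vav knockouts (12.2 ± 0.765, SD, n = 3), against 0.837, 1.29 and 1.07 FPKM in WT (V) (1.06 ± 0.225, SD, n = 3). Behind these values stood about 129, 138 and 158 reads in Vav knockouts and 10, 16 and 14 reads in WT (V), taking the step between low values as 1 read.

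Cd163l1 (ENSMUSG00000025461, mm10 chromosome 7, 140218267 to 140231145, plus strand), a scavenger receptor of subsets of mouse gamma-delta T cells, was close to silent in WT. It had 1.91, 7.0 and 4.83 FPKM in Vav knockouts, against 0.0339, 0.0408 and 0.00773 FPKM in WT (V). About 212, 747 and 589 reads stood behind it in Vav knockouts and 4, 5 and 1 reads in WT (V). Sox13 (ENSMUSG00000070643, chromosome 1, 133382303 to 133424377, minus strand), a transcription factor of gamma-delta thymocytes, had 0.238, 0.264 and 0.558 FPKM in Vav knockouts, against 0.142, 0.131 and 0.0846 FPKM in WT (V). Its groups did not overlap, at levels under 1 FPKM throughout. Blk (ENSMUSG00000014453, chromosome 14, 63372836 to 63417037, minus strand), a Src-family kinase of B cells and of some gamma-delta T cells, had 0.0249 to 0.272 FPKM in Vav knockouts and 0.0797 to 0.142 FPKM in WT (V), and the groups overlapped.

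**Figure D1:**
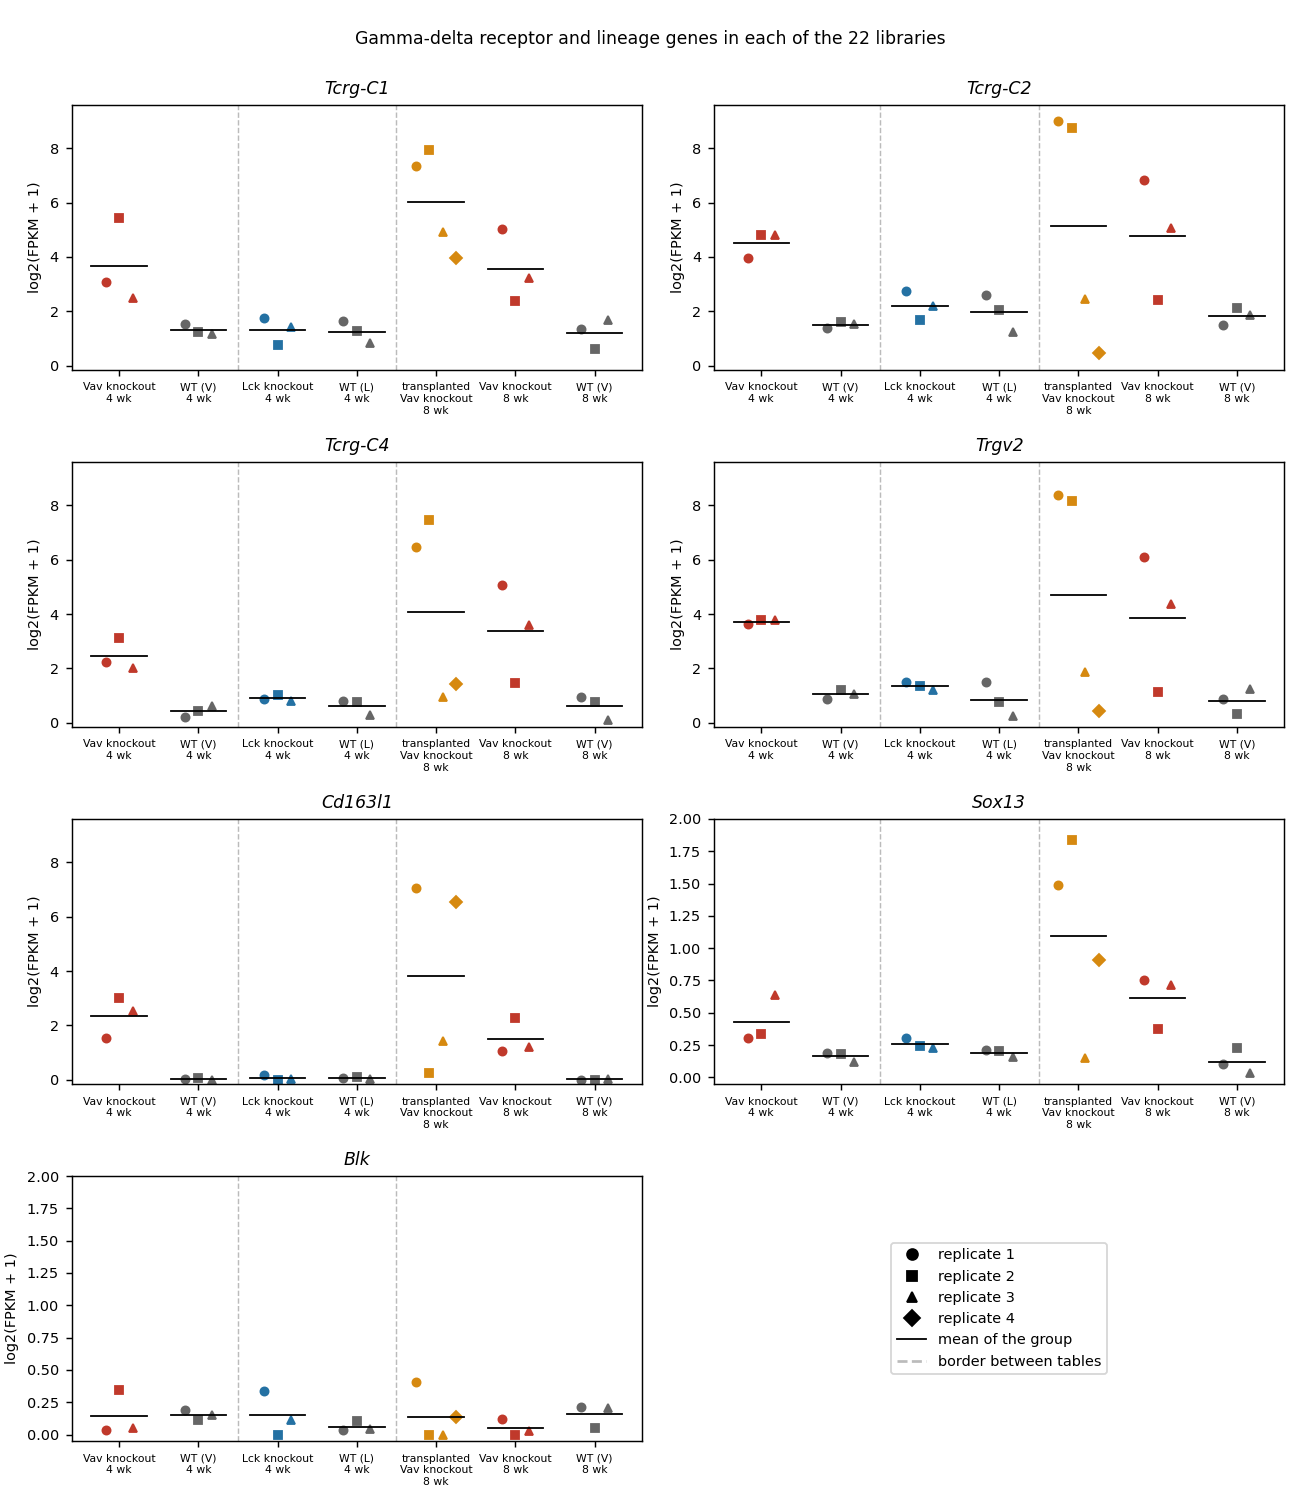
Level of each measured gene in each library, as log2(FPKM + 1) on the vertical axis, by group on the horizontal axis, with 1 point per library (shape gives the replicate), the group mean as a bar and dashed lines between separately normalized tables. The Vav knockouts at 4 weeks lie above WT (V) for every gene except Blk, the Lck knockouts lie near WT (L), and the transplanted Vav knockouts spread most; Sox13 and Blk have a shorter vertical axis.

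At 4 weeks, 4 of the 5 members tested were called higher in Vav knockouts than in WT (V), beside 7.63% of all genes tested that were called higher and 6.08% called lower (limma, adjusted p under 0.05). Over all genes that was 826 higher and 658 lower, and 606 higher and 1001 lower after scaling to a common FPKM sum, which left the members' count at 4. The difference in log2(FPKM + 1) was 3.02 for Tcrg-C2 (SE 0.226, adjusted p = 0.00146), 2.68 for Trgv2 (SE 0.0958, adjusted p = 0.000162), 2.04 for Tcrg-C4 (SE 0.286, adjusted p = 0.00767) and 2.32 for Cd163l1 (SE 0.344, adjusted p = 0.00899). Tcrg-C1 differed by 2.35 with a larger error (SE 0.705, adjusted p = 0.0746) and was not called. Without Vav knockout replicate 2, its highest library, the difference of Tcrg-C1 was 1.48 with an adjusted p of 0.00949. Tcrg-C4 and Cd163l1 passed the filter on low values only through the knockouts. Trgv2 reached 1 FPKM in 2 of the 3 WT (V) libraries, so it also needed a knockout library to pass that filter. Sox13 and Blk did not pass it; fitted without the filter, Sox13 differed by 0.27 (SE 0.0952, adjusted p = 0.203) and Blk by -0.01 (SE 0.0906, adjusted p = 0.982). In all, 6 of 7 measured members had every Vav knockout above every WT (V) library, as did 19.2% of all genes tested.

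In Lck knockouts the same genes stayed within or near the range of their controls. Tcrg-C1 had 2.36, 0.704 and 1.65 FPKM in Lck knockouts, against 2.12, 1.42 and 0.79 FPKM in WT (L). Tcrg-C2 had 5.71, 2.17 and 3.53 FPKM in Lck knockouts, against 5.0, 3.17 and 1.36 FPKM in WT (L). Trgv2 had 1.85, 1.56 and 1.32 FPKM in Lck knockouts, against 1.84, 0.70 and 0.195 FPKM in WT (L). The groups overlapped for each of these. Cd163l1 was at 0.125, 0 and 0.0191 FPKM in Lck knockouts and at 0.0373, 0.0887 and 0.0198 FPKM in WT (L), and Blk at 0 to 0.261 FPKM in Lck knockouts and 0.026 to 0.0742 FPKM in WT (L).

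None of the 3 members tested was called in Lck knockouts (0 of 3), where 0.201% of all genes tested were called higher and 0.804% lower and 1503 genes had an unadjusted p under 0.05 (limma). Over all genes that was 22 higher and 88 lower, and 6 higher and 88 lower after scaling to a common FPKM sum. The differences in log2(FPKM + 1) were 0.06 for Tcrg-C1 (SE 0.303, adjusted p = 0.961), 0.24 for Tcrg-C2 (SE 0.404, adjusted p = 0.865) and 0.52 for Trgv2 (SE 0.308, adjusted p = 0.541). Tcrg-C4 and Sox13, both under the filter, had every Lck knockout above every WT (L) library, as did 11.7% of all genes tested. Tcrg-C4 had 0.826, 1.05 and 0.758 FPKM in Lck knockouts, against 0.742, 0.705 and 0.224 FPKM in WT (L), about 14, 7 and 14 reads against 14, 14 and 4 reads. Sox13 had 0.235, 0.181 and 0.169 FPKM in Lck knockouts, against 0.160, 0.152 and 0.115 FPKM in WT (L). Fitted without the filter, Tcrg-C4 differed by 0.29 (SE 0.161, adjusted p = 0.658) and Sox13 by 0.07 (SE 0.0339, adjusted p = 0.628). The Lck libraries were shallower than the Vav libraries at 4 weeks, and the reads behind Trgv2 were 9, 3 and 7 in Lck knockouts and 10, 4 and 1 in WT (L).

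For Tcrg-C2 and Trgv2 the effect of the Vav deletion exceeded that of the Lck deletion, each effect being taken within its own table. In the test of this difference (an interaction over the 4 groups at 4 weeks), 2 of the 3 members tested were called, beside 1.65% of all genes tested that were called higher and 1.65% called lower. The Vav effect minus the Lck effect was 2.79 for Tcrg-C2 (SE 0.504, adjusted p = 0.015) and 2.17 for Trgv2 (SE 0.344, adjusted p = 0.00828) in log2(FPKM + 1). For Tcrg-C1 it was 2.30 (SE 0.849, adjusted p = 0.189). With a pseudocount of 0.1, Trgv2 lost its call (2.31, adjusted p = 0.118), its lowest WT (L) value resting on 1 read. Without the filter, Cd163l1 also passed (2.32, adjusted p = 0.0259), and Tcrg-C4 did not (1.75, adjusted p = 0.0562).

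At 8 weeks the levels were more uneven, and the highest were in transplanted Vav knockouts. Tcrg-C2 had 506, 422, 4.49 and 0.369 FPKM in transplanted Vav knockouts and 114, 4.29 and 32.2 FPKM in Vav knockouts, against 1.81, 3.30 and 2.64 FPKM in WT (V). Transplanted replicates 1 and 2 exceeded every other library of the 8-week table, and transplanted replicate 4, with about 3 reads, lay below every WT (V) library of its age. Tcrg-C1 had 161, 243, 29.0 and 14.5 FPKM in transplanted Vav knockouts and 31.8, 4.16 and 8.41 FPKM in Vav knockouts, against 1.54, 0.534 and 2.2 FPKM in WT (V). It was the gamma segment among the members for which each of the 4 transplanted libraries lay above WT (V). Tcrg-C4 had 87.7, 173, 0.928 and 1.68 FPKM in transplanted Vav knockouts and 32.3, 1.77 and 11.1 FPKM in Vav knockouts, against 0.937, 0.683 and 0.078 FPKM in WT (V). Transplanted replicate 3 fell within the WT (V) range for Tcrg-C4.

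Trgv2 followed Tcrg-C2 from library to library. It had 333, 283, 2.66 and 0.354 FPKM in transplanted Vav knockouts and 66.8, 1.19 and 19.6 FPKM in Vav knockouts, against 0.814, 0.264 and 1.36 FPKM in WT (V). Vav knockout replicate 2 and transplanted replicate 4 fell within the WT (V) range. The ratio of Trgv2 to Tcrg-C2 in FPKM lay between 0.594 and 0.958 in transplanted Vav knockouts, between 0.278 and 0.608 in Vav knockouts and between 0.0798 and 0.513 in WT (V) of that age, while Tcrg-C2 itself ranged from 0.369 to 506 FPKM. At 4 weeks it lay between 0.467 and 0.772 in Vav knockouts and between 0.513 and 0.639 in WT (V). It lay between 0.323 and 0.719 in Lck knockouts and between 0.144 and 0.368 in WT (L). At low levels the ratio rests on few reads. WT (V) replicate 2 at 8 weeks, with the lowest ratio, had about 1 read behind Trgv2.

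Cd163l1 and the constant segments were both high in transplanted replicate 1 and parted in transplanted replicates 2 and 4. It had 132, 0.192, 1.68 and 92.0 FPKM in transplanted Vav knockouts and 1.10, 3.81 and 1.32 FPKM in Vav knockouts, against 0, 0 and 0.0275 FPKM in WT (V). Transplanted replicate 2, with the second highest Tcrg-C2 level, had the lowest Cd163l1 of the 4 transplanted libraries, and transplanted replicate 4, with the lowest Tcrg-C2, had 92.0 FPKM. About 6138, 13, 117 and 5073 reads stood behind Cd163l1 in transplanted Vav knockouts and 72, 188 and 85 in Vav knockouts, against 0, 0 and 2 in WT (V). Sox13 had 1.81, 2.57, 0.112 and 0.882 FPKM in transplanted Vav knockouts and 0.687, 0.296 and 0.642 FPKM in Vav knockouts, against 0.0733, 0.174 and 0.0235 FPKM in WT (V), and only transplanted replicate 3 fell within the WT (V) range. Sox13 was under the filter, and without it differed by 0.98 in transplanted Vav knockouts (SE 0.354, adjusted p = 0.193) and by 0.49 in Vav knockouts (SE 0.378, adjusted p = 0.523). Blk had 0 to 0.326 FPKM in transplanted Vav knockouts, 0 to 0.0843 FPKM in Vav knockouts and 0.0373 to 0.161 FPKM in WT (V), and the groups overlapped.

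In transplanted Vav knockouts against WT (V), 1 of the 5 members tested was called, Tcrg-C1, beside 4.59% of all genes tested that were called higher and 4.6% called lower. Tcrg-C1 differed by 4.82 in log2(FPKM + 1) (SE 0.979, adjusted p = 0.018). The other differences were 3.34 for Tcrg-C2 (SE 2.05, adjusted p = 0.333), 3.47 for Tcrg-C4 (SE 1.60, adjusted p = 0.205), 3.90 for Trgv2 (SE 2.01, adjusted p = 0.252) and 3.80 for Cd163l1 (SE 1.53, adjusted p = 0.154). Leaving out WT (V) replicate 1, 2 or 3 ended the call of Tcrg-C1 (adjusted p = 0.071, 0.0847 and 0.0594), and leaving out transplanted replicate 2 brought Cd163l1 under the threshold (4.99, adjusted p = 0.0497). Tcrg-C1 and Cd163l1 were the 2 of 7 measured members with every transplanted library above every WT (V) library, as were 11.5% of all genes tested.

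In Vav knockouts against WT (V) at 8 weeks, none of the 5 members tested was called (0 of 5), beside 4.65% of all genes tested that were called higher, 4.45% called lower and 3417 genes with an unadjusted p under 0.05 (limma). The differences in log2(FPKM + 1) were 2.33 for Tcrg-C1 (SE 1.05, adjusted p = 0.173), 2.95 for Tcrg-C2 (SE 2.19, adjusted p = 0.393), 2.77 for Tcrg-C4 (SE 1.71, adjusted p = 0.304), 3.05 for Trgv2 (SE 2.15, adjusted p = 0.368) and 1.51 for Cd163l1 (SE 1.63, adjusted p = 0.563). This fit shares its estimate of spread with the transplanted libraries. Fitted on the 6 libraries compared, limma called Tcrg-C1 (adjusted p = 0.033), Tcrg-C4 (adjusted p = 0.041) and Cd163l1 (adjusted p = 0.0113). In that fit 2598 genes were called higher and 2489 lower of 11632 tested, a far larger share of all genes than in the shared fit. Tcrg-C4 and Cd163l1 reached 1 FPKM in 0 of the 3 WT (V) libraries of that age and passed the filter only through libraries with Cre. Tcrg-C1 reached it in 2 of them and Trgv2 in 1, so both also needed libraries with Cre to pass. Tcrg-C1, Tcrg-C2, Tcrg-C4, Cd163l1 and Sox13, 5 of 7 measured members, had every Vav knockout above every WT (V) library, as did 28.9% of all genes tested. The 8-week comparisons share libraries and are not independent of each other.

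By group mean, each of the 4 gamma segments and Cd163l1 was highest in transplanted Vav knockouts, then in Vav knockouts, then in WT (V). The first of these steps was within the spread, and of the steps to WT (V) the one called is given above. In transplanted Vav knockouts against Vav knockouts 0 of the 5 members tested were called, as were 0% of all genes (681 genes had an unadjusted p under 0.05), and the differences lay between 0.39 (Tcrg-C2, SE 2.05) and 2.49 (Tcrg-C1, SE 0.979, adjusted p = 0.837). The groups overlapped for all 7 measured members, whereas 3.46% of all genes tested were higher and 2.53% lower in every transplanted library. The Vav effect at 8 weeks minus that at 4 weeks was also not called for any of the 5 members tested (0 of 5), beside 8.87% of all genes tested that were called higher and 9.37% called lower (930 and 983 genes, or 588 and 1234 after scaling to a common FPKM sum). It ranged from -0.82 for Cd163l1 (SE 0.508, adjusted p = 0.294) to 0.73 for Tcrg-C4 (SE 0.989, adjusted p = 0.648).

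**Figure D2:**
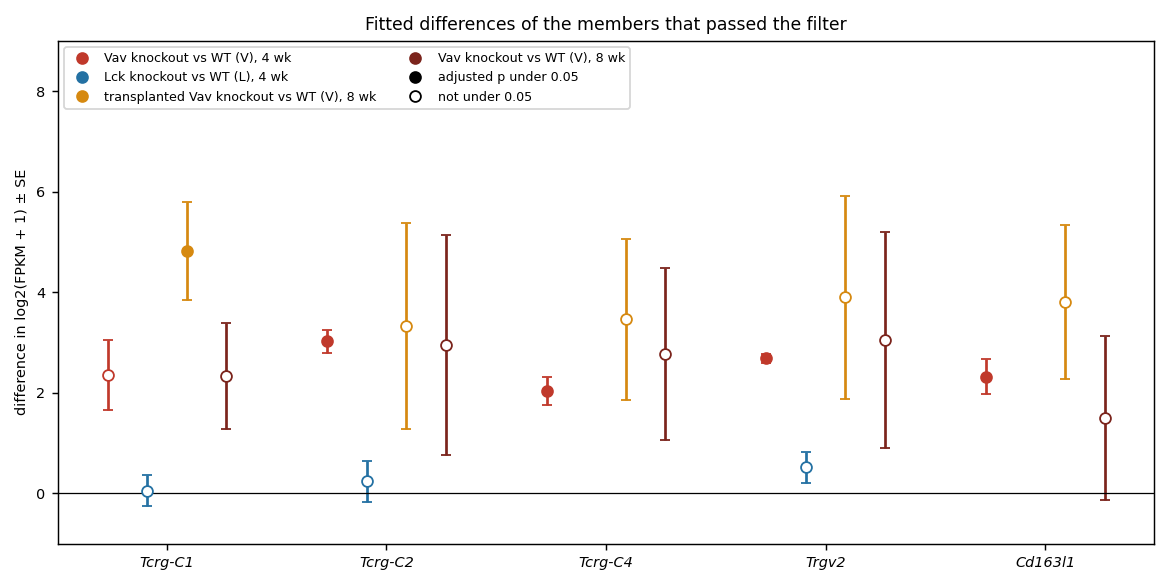
Fitted difference in log2(FPKM + 1) between each deleted group and the WT libraries of its table (vertical axis, bars are the standard error) for the members that passed the filter (horizontal axis), with filled points called at an adjusted p under 0.05. The errors in Vav knockouts at 8 weeks, 1.05 (Tcrg-C1) to 2.19 (Tcrg-C2), exceed those of the same genes at 4 weeks, 0.0958 (Trgv2) to 0.705 (Tcrg-C1), and the Lck differences lie between 0.06 and 0.52.

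The constant segments were used in different proportions from library to library. Their sum was 755, 839, 34.4 and 16.5 FPKM in transplanted Vav knockouts and 178, 10.2 and 51.7 FPKM in Vav knockouts, against 4.29, 4.52 and 4.92 FPKM in WT (V) at 8 weeks. At 4 weeks it was 25.8, 76.1 and 34.8 FPKM in Vav knockouts, against 3.67, 3.72 and 3.62 FPKM in WT (V). In transplanted replicates 1 and 2 the sum was 1.51 and 1.91 times the level of Trac, the constant gene of the alpha chain, and in the WT (V) libraries of that age at most 0.00498 times. In transplanted replicates 3 and 4 it was 0.0682 and 0.0467 times. In Vav knockouts it was 0.0162 to 0.354 times at 8 weeks and 0.0466 to 0.201 times at 4 weeks. Tcrg-C1 made up 84.3% and 87.6% of the sum in transplanted replicates 3 and 4 and 21.4% and 29.0% in transplanted replicates 1 and 2. At 4 weeks it made up 54.8% in Vav knockout replicate 2 and 28.6% and 13.4% in replicates 1 and 3. These shares and ratios are of FPKM, and the lengths behind the deposited values differ from the annotated ones. Whether the sum exceeded Trac in transcripts therefore cannot be told from these ratios.

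**Figure D3:**
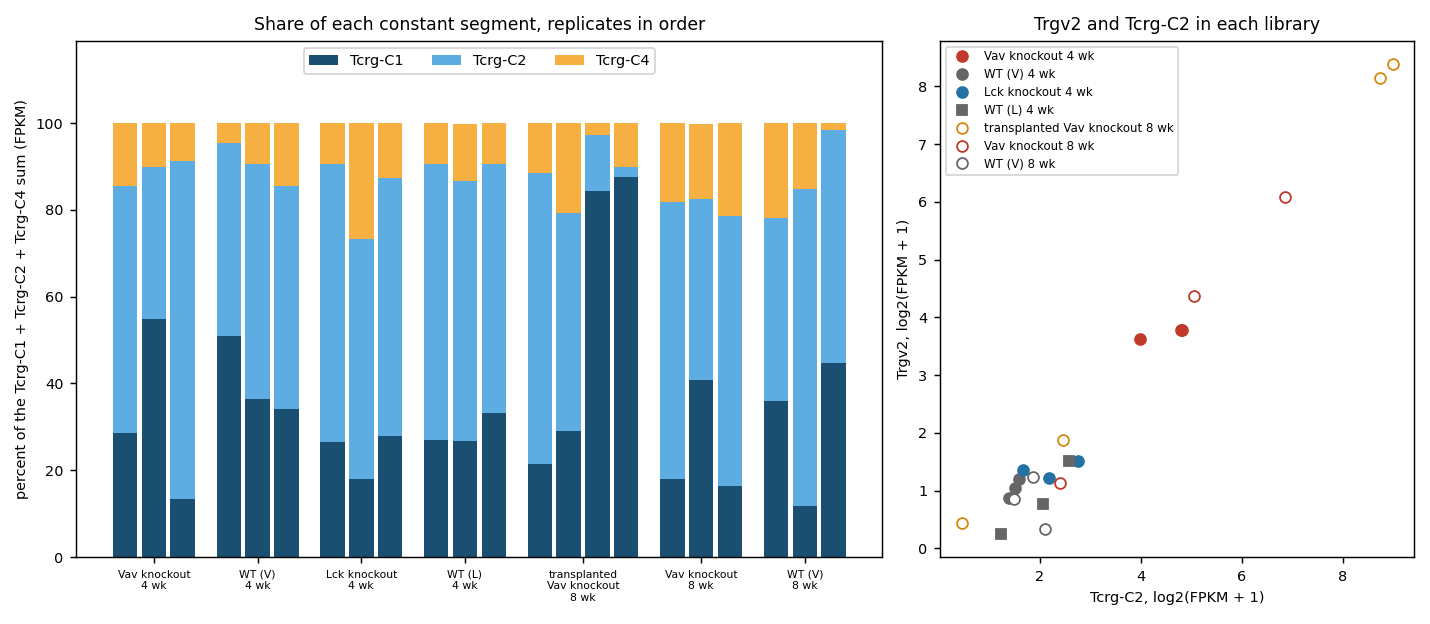
Left, share of Tcrg-C1, Tcrg-C2 and Tcrg-C4 in their summed FPKM (vertical axis, percent) for each library (1 bar each, replicates in order within a group). Right, Trgv2 against Tcrg-C2 in the 22 libraries, both as log2(FPKM + 1), open points at 8 weeks and squares for WT (L). Tcrg-C1 takes 84.3% and 87.6% in transplanted replicates 3 and 4, and the libraries with the highest Tcrg-C2 also have the highest Trgv2.

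Other gamma segments of the locus were high in the same group. Of 11 listed, 8 were analysed. In Vav knockouts at 4 weeks 3 of 3 tested were called higher than in WT (V), beside 7.63% of all genes tested. They were Tcrg-V1 (2.46, SE 0.513, adjusted p = 0.0261), Trgj4 (2.31, SE 0.269, adjusted p = 0.00457) and Tcrg-V4 (0.88, SE 0.216, adjusted p = 0.0432), with differences in log2(FPKM + 1) and a median over all genes of -0.00835. Tcrg-V1 had 2.04, 12.6 and 3.39 FPKM in Vav knockouts, against 0.0845, 0 and 0 FPKM in WT (V). All 3 passed the filter only through the knockouts. At 8 weeks 0 of 5 tested were called in transplanted Vav knockouts or in Vav knockouts against WT (V), and 0 were tested in Lck knockouts. The shares of all genes called higher at 8 weeks were 4.59% in transplanted Vav knockouts and 4.65% in Vav knockouts.

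The variable segments that precede Tcrg-C1 were each high in few libraries. Tcrg-V4 had 21.4, 168, 2.61 and 0.149 FPKM in transplanted Vav knockouts and 16.6, 2.19 and 0.257 FPKM in Vav knockouts, against 0.138, 0 and 0.802 FPKM in WT (V). Tcrg-V5, used by skin-homing cells of the fetal thymus, had 55.0, 3.31, 0 and 2.11 FPKM in transplanted Vav knockouts and 1.78, 0 and 0.907 FPKM in Vav knockouts, and it was at 0 in WT (V) at 8 weeks. Tcrg-V6, used by fetal cells that settle in other barrier tissues, had 5.46, 1.39, 13.0 and 0 FPKM in transplanted Vav knockouts and 0, 0 and 0.132 FPKM in Vav knockouts, and it was at 0 in WT (V) at 8 weeks. The library with the most Tcrg-V4 (transplanted replicate 2), the one with the most Tcrg-V5 (transplanted replicate 1) and the one of that group with the most Tcrg-V6 (transplanted replicate 3) were thus different ones. At 4 weeks Tcrg-V6 had 0.382, 13.7 and 0.209 FPKM in Vav knockouts, against 0.0727, 0.0699 and 0 FPKM in WT (V), and Vav knockout replicate 2, with the most Tcrg-C1, stood apart. Tcrg-V7 reached at most 2.39 FPKM (the same library), and Tcrg-C3 and Tcrg-V3 at most 0.848 and 3.06 FPKM in the series.

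**Figure D4:**
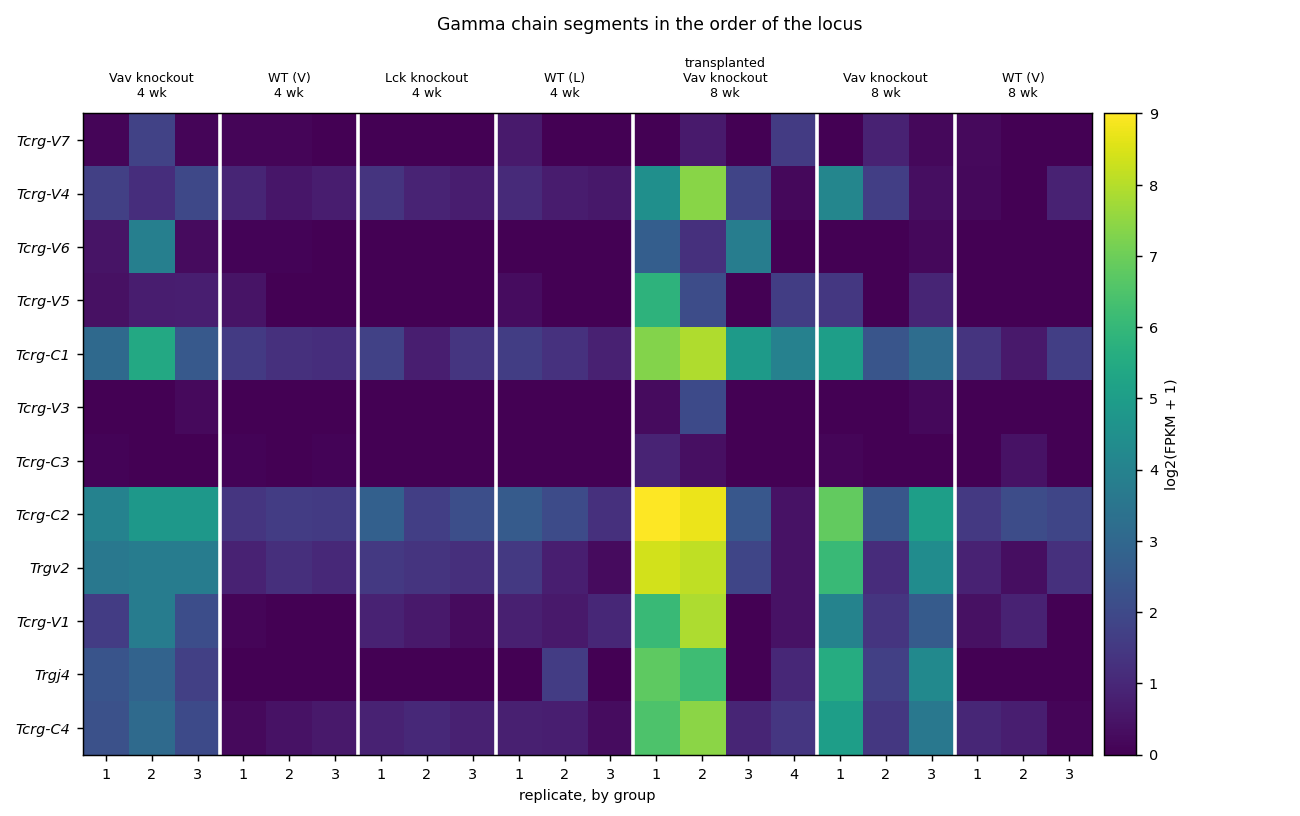
Gamma chain segments from the Tcrg-V7 end to the Tcrg-C4 end of the locus (rows) in the 22 libraries (columns, grouped), coloured by log2(FPKM + 1). Rows from Tcrg-C2 to Tcrg-C4 are brightest together in transplanted replicates 1 and 2, and less so in Vav knockout replicates 1 and 3 at 8 weeks. In the Vav knockouts at 4 weeks Tcrg-C2 and Trgv2 stand out among these rows, and Tcrg-V1, Trgj4 and Tcrg-C4 are darker. Transplanted replicate 3 is brighter at Tcrg-V6 and Tcrg-C1 (13.0 and 29.0 FPKM).

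Of 10 other delta segments listed, 9 were analysed and all 9 were tested at 4 weeks. There 2 were called higher and 1 lower in Vav knockouts than in WT (V), beside 7.63% and 6.08% of all genes tested. Trdv4 had the widest gap. It had 64.7, 82.1 and 25.4 FPKM in Vav knockouts, against 0.51, 1.88 and 1.16 FPKM in WT (V), a difference of 4.64 in log2(FPKM + 1) (SE 0.448, adjusted p = 0.00289). With 1 FPKM reached in 2 of the 3 WT (V) libraries, Trdv4 also needed a knockout library to pass the filter. Trdv5, which lies inverted at the far end of the delta segments, moved the other way, with 20.5, 11.4 and 17.1 FPKM in Vav knockouts against 33.3, 35.4 and 40.3 FPKM in WT (V) (-1.14, SE 0.199, adjusted p = 0.0145). Trdv2-1 had 11.9, 12.9 and 11 FPKM in Vav knockouts, against 6.29, 7.51 and 6.96 FPKM in WT (V) (0.71, SE 0.0841, adjusted p = 0.00481). In Lck knockouts 0 of 8 tested were called; Trdv4 was under the filter there, with 0.208, 2.64 and 1.34 FPKM in Lck knockouts and 0.187, 0.178 and 0 FPKM in WT (L). The Vav effect minus the Lck effect was called for Trdv5 (-1.58, SE 0.265, adjusted p = 0.0104) and Trdv1 (-0.58, SE 0.119, adjusted p = 0.0258), 2 of 8 tested. Over all genes tested, 1.65% were called lower for this difference. In Lck knockouts 0.201% were called higher and 0.804% lower.

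At 8 weeks Trdv4 had 0, 237, 58.5 and 133 FPKM in transplanted Vav knockouts and 19.1, 8.47 and 280 FPKM in Vav knockouts, against 0.66, 0.267 and 0.412 FPKM in WT (V). Each Vav knockout lay above WT (V), and transplanted replicate 1, which had the highest Tcrg-C2, was at 0. In that library Trdv1 and Trdv2-2 were also at 0 FPKM, against 6.52 to 8.85 and 16.8 to 22.7 FPKM in WT (V), and Trdj2 was at 2.49 FPKM, against 23.5 to 38.6 FPKM in WT (V). Trdv4 was not called in transplanted Vav knockouts (4.69, SE 1.80, adjusted p = 0.137) or in Vav knockouts (4.71, SE 1.92, adjusted p = 0.143). The diversity segments Trdd1 and Trdd2 are 11 and 16 bases long, too short for FPKM to be read as levels. Trdd1 was the 1 delta segment called of 8 tested at 8 weeks. It was lower in transplanted Vav knockouts (-4.21, limma adjusted p = 0.0113) and in Vav knockouts (-3.08, limma adjusted p = 0.0478). The shares of all genes called lower were 4.6% and 4.45%.

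**Figure D5:**
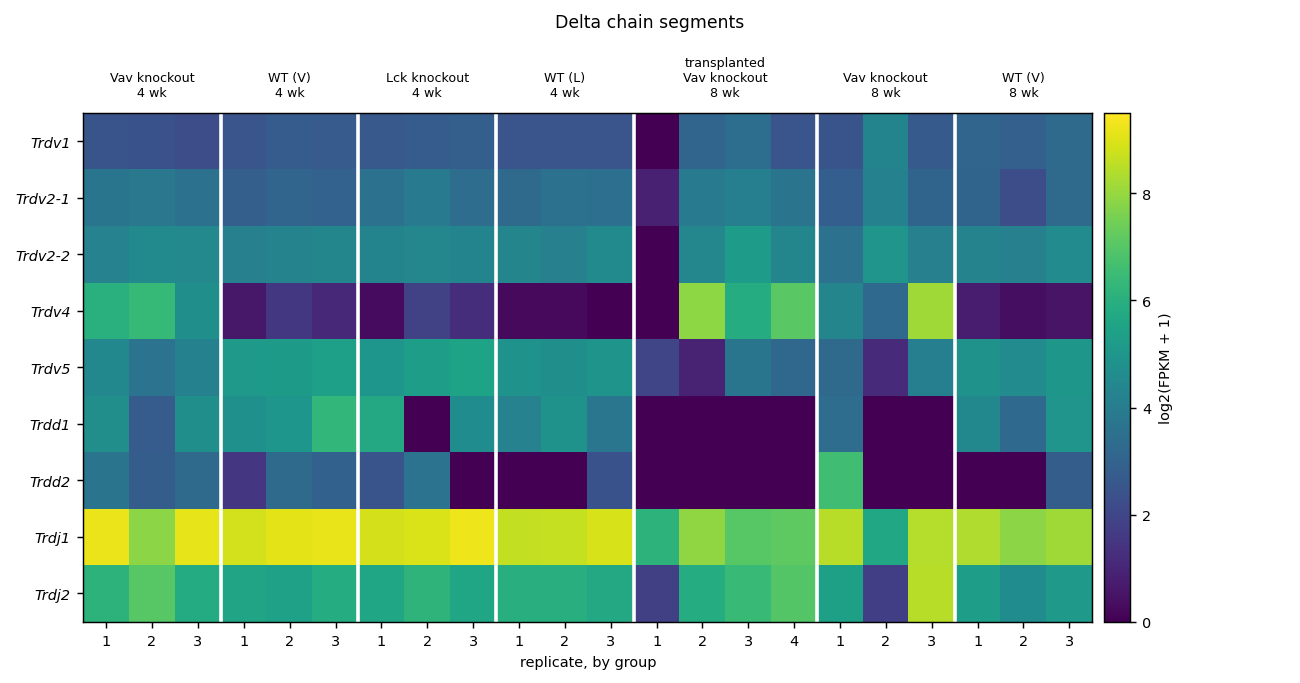
Delta chain segments (rows) in the 22 libraries (columns, grouped), coloured by log2(FPKM + 1). Trdv4 is dark in all WT and Lck libraries (at most 2.64 FPKM) and bright in the Vav knockouts, and transplanted replicate 1 is dark at Trdv1, Trdv2-1, Trdv2-2 and Trdv4.

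Of the members, Cd163l1 and Sox13 had a promoter in the RefSeq table. That of Cd163l1, the lineage gene called higher in Vav knockouts, is shown because E proteins bind E-boxes (GRCm38.p6, chr7:140218017-140218316, plus strand, 250 bases before to 50 after the start), 5′ to 3′ with E-boxes (CANNTG, which reads the same on both strands) in capitals:
Cd163l1: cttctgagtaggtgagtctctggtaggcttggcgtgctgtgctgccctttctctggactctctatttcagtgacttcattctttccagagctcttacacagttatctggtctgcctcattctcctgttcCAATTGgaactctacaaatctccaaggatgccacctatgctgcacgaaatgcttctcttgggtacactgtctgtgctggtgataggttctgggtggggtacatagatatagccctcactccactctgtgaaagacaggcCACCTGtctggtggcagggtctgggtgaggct

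That window held 2 E-boxes, which do not overlap and begin at positions -121 and 18 from the start, 1 of them of the form CAGGTG or CACCTG that E proteins bind. Of 27025 mouse promoters of this length, 72.1% held at least 1 CANNTG and 20.0% at least 1 CAGGTG or CACCTG. The Sox13 promoter held 0 CANNTG. A match is a description of the letters and not a bound site.

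Next to Cd163l1 on the same strand of chromosome 7 lies 5830411N06Rik (140247284 to 140300736), a related scavenger receptor gene. It had 1.92, 2.68 and 3.81 FPKM in Vav knockouts, against 0.0381, 0.0122 and 0.0376 FPKM in WT (V) at 4 weeks (1.86, SE 0.179, adjusted p = 0.00289). At 8 weeks it had 20.6, 0.978, 0.989 and 6.88 FPKM in transplanted Vav knockouts and 1.88, 2.0 and 4.74 FPKM in Vav knockouts, against 0.0432, 0 and 0.0565 FPKM in WT (V). As for Cd163l1, transplanted replicates 1 and 4 were highest. By the mean absolute difference in log2(FPKM + 1), each library taken relative to the WT mean of its table, it was the gene most like Cd163l1 among 11956 over 22 libraries (0.535). It was followed by Adam19 (0.636) and Gm38244 (0.702). By the same measure the 3 genes closest to Tcrg-C2, Tcrg-C4 and Trgv2 were in each case Trgj4, Tcrg-V1 and Necab1, at differences between 0.442 (Tcrg-V1 and Tcrg-C4) and 0.816 (Necab1 and Tcrg-C2). Closest to Tcrg-C1 were a gene without a symbol in the annotation (0.576), Il7r, the interleukin 7 receptor (0.651), and Tcrg-V1 (0.683). Libraries of 1 table share their WT mean in this measure.

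Of 40 further genes of gamma-delta lineage and effector programmes, 16 were tested in Vav knockouts at 4 weeks, of which 6 were higher and 3 lower (median 0.0834), beside 7.63% and 6.08% of all genes tested. Besides 5830411N06Rik they included Runx3, a transcription factor of cytotoxic cells (1.24, SE 0.165, adjusted p = 0.00635), and Il2rb, a receptor chain for interleukins 2 and 15 (0.93, SE 0.0883, adjusted p = 0.00277), both higher, and Tmem176b, lower (-0.90, SE 0.0844, adjusted p = 0.00268). Each of these 3 higher genes stayed under 1 FPKM in WT (V) and passed the filter only through the knockouts. Tmem176b stayed under 1 FPKM in the knockouts and passed the filter only through WT (V). In Lck knockouts 0 of 12 tested were called, beside 0.201% of all genes tested called higher and 0.804% lower. At 8 weeks Il2rb was the 1 called of 19 in transplanted Vav knockouts (1.90, SE 0.431, adjusted p = 0.0265), with 7.08, 1.54, 2.67 and 8.28 FPKM against 0.31, 0.241 and 0.60 FPKM in WT (V). Over all genes tested 4.59% were called higher there, so 1 of 19 is near the share of all genes. In Vav knockouts at 8 weeks 3 of 19 were called, all lower, the early response factors Egr3 (-1.5, SE 0.327, adjusted p = 0.0251) and Egr2 (-0.96, SE 0.243, adjusted p = 0.0419) and the costimulatory receptor Cd27 (-0.86, SE 0.23, adjusted p = 0.0493). Over all genes tested 4.45% were called lower there. Egr2 and Egr3 stayed under 1 FPKM in these Vav knockouts and needed WT (V) libraries to pass the filter. The cytokine gene Il17a, of interleukin 17-producing gamma-delta cells, was listed at 0 in all 22 libraries, and Sox5, a partner of Sox13, reached at most 0.014 FPKM. Zbtb16, a factor of innate-like T cells, had 2.99, 0.04, 0.452 and 0.109 FPKM in transplanted Vav knockouts and 1.19, 0.205 and 0.969 FPKM in Vav knockouts at 8 weeks, against 0.0335, 0 and 0.0558 FPKM in WT (V), and transplanted replicate 2 fell within the WT (V) range.

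Some alpha and beta receptor genes and stage markers differed from WT (V) beside the gamma chain, and their part in its levels was not tested. Of 8 alpha-beta receptor genes, 1 was called lower in Vav knockouts at 4 weeks (Ptcra, the pre-T alpha chain, -1.21, SE 0.127, adjusted p = 0.00354) and 2 in each 8-week comparison with WT (V), Trac and Cd247. The other 7, among them Trac, Trbc1 and Trbc2, were not called at 4 weeks. Trac had 499, 439, 505 and 353 FPKM in transplanted Vav knockouts and 502, 632 and 506 FPKM in Vav knockouts, against 986, 1044.3 and 987 FPKM in WT (V). Trbc1, a constant gene of the beta chain, was not called but split the libraries more, with 1502.7, 4.7, 685 and 8.57 FPKM in transplanted Vav knockouts and 4.64, 98.7 and 692 FPKM in Vav knockouts, against 948, 891 and 995 FPKM in WT (V). Of 10 double-positive markers, 4 were called lower and 1 higher in Vav knockouts at 4 weeks, 3 lower in transplanted Vav knockouts and 2 lower in Vav knockouts at 8 weeks. Beside these and the receptor genes, 7.63% of all genes tested were called higher and 6.08% lower in Vav knockouts at 4 weeks. The shares called lower were 4.6% in transplanted Vav knockouts, 4.45% in Vav knockouts at 8 weeks and 0.804% in Lck knockouts. In Lck knockouts 1 of the 8 receptor genes was called lower and 0 of the 10 markers were called. Their summed level was 3182.2 to 3776 FPKM in Vav knockouts and 4347 to 4507.3 FPKM in WT (V) at 4 weeks, and 1341.1 to 3384.2 FPKM in transplanted Vav knockouts, 2209 to 2485.9 FPKM in Vav knockouts and 4350.2 to 4713.4 FPKM in WT (V) at 8 weeks.

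Early thymocyte genes summed to 73.1 to 118 FPKM in Vav knockouts and 40.7 to 43.5 FPKM in WT (V) at 4 weeks, with 3 of 4 tested called higher and the other, Ptcra, lower, the higher ones being Notch1 (1.43, SE 0.173, adjusted p = 0.00507), Il2ra (2.95, SE 0.272, adjusted p = 0.00251) and Dtx1, a regulator in the Notch pathway (2.95, SE 0.271, adjusted p = 0.00251). At 8 weeks they summed to 74.2 to 270 FPKM in transplanted Vav knockouts, 72.7 to 132 FPKM in Vav knockouts and 25.1 to 29.4 FPKM in WT (V). Natural killer and innate genes summed to 55.9 to 200 FPKM in Vav knockouts and 27.1 to 29 FPKM in WT (V) at 4 weeks, and to 91.7 to 791 FPKM in transplanted Vav knockouts, 331 to 490 FPKM in Vav knockouts and 30.7 to 44.4 FPKM in WT (V) at 8 weeks. Of 10 genes on that list, 5 were tested in each of these comparisons with WT (V). Called higher were 3 in Vav knockouts at 4 weeks, 2 in transplanted Vav knockouts and 1 in Vav knockouts at 8 weeks. The shares of all genes tested that were called higher were 7.63%, 4.59% and 4.65%. The 3 called at 4 weeks, Cd7, Il2rb and Nkg7, stayed under 1 FPKM in WT (V) and passed the filter only through the knockouts. Il2rb, also called in transplanted Vav knockouts, was under 1 FPKM in WT (V) at 8 weeks too. Most of that sum at 8 weeks was Gzma, a granzyme, and the natural killer marker Ncr1 reached at most 0.0728 FPKM in any library. Lck knockouts and WT (L) overlapped in the early thymocyte sum (25.4 to 29.2 against 27.9 to 32.7 FPKM) and in the natural killer sum (28.6 to 42.7 against 26.1 to 35.5 FPKM).

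Of 8 genes of mature single-positive thymocytes, 7 were called higher and 1 lower in Vav knockouts at 4 weeks. Over all genes tested, 7.63% were called higher and 6.08% lower. The higher ones included Itgb7 (2.66, SE 0.125, adjusted p = 0.000372) and Il7r (1.47, SE 0.0951, adjusted p = 0.0011). Il7r, Klf2 and S1pr1 stayed under 1 FPKM in WT (V) and passed the filter only through the knockouts. The 8 genes summed to 137 to 164 FPKM in Vav knockouts and 160 to 165 FPKM in WT (V). In each 8-week comparison with WT (V) 1 of them was called, Itgb7, higher, and in Lck knockouts 2 of 7 tested were higher. Over all genes, 4.59% were called higher in transplanted Vav knockouts, 4.65% in Vav knockouts at 8 weeks and 0.201% in Lck knockouts. Of 6 E protein and Id genes, 2 were higher and 3 lower in Vav knockouts at 4 weeks, and Tcf3 was the 1 called, lower, in each 8-week comparison with WT (V). At 4 weeks Id1, called higher, stayed under 1 FPKM in WT (V) and passed the filter only through the knockouts. Tcf4, called lower, stayed under 1 FPKM in the knockouts and passed the filter only through WT (V).

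Some defining markers of other cell types were low, and other genes of the same lists were not. The B cell markers Ms4a1, Pax5 and Ebf1 reached at most 0.00589 FPKM in libraries with Cre and 0.0274 FPKM in WT, beside Blk at 0 to 0.326 FPKM. The macrophage marker Csf1r reached at most 0.252 FPKM with Cre and 0.0226 FPKM in WT, and the thymic epithelial factor Foxn1 at most 0.02 FPKM with Cre and 0.0709 FPKM in WT. At 8 weeks Igkc of the B cell list had 5.67, 6.79, 68.4 and 2.11 FPKM in transplanted Vav knockouts. It had 0.646, 12.7 and 20.4 FPKM in Vav knockouts and 16.2, 1.43 and 22.2 FPKM in WT (V). Lyz2 of the macrophage list had 2.2, 4.31, 16.1 and 0.293 FPKM in transplanted Vav knockouts. It had 1.15, 5.61 and 6.46 FPKM in Vav knockouts and 1.57, 0.146 and 1.16 FPKM in WT (V). Transplanted replicate 3 was highest for both. The B cell list as a whole, nearly all of it Ighm, the heavy chain constant gene, summed to less in Vav knockouts (69.4 to 138 FPKM) than in WT (V) (169 to 185 FPKM) at 4 weeks, with 1 of 2 tested called lower. That gene, Cd79b, had 0.445, 0.208 and 0.459 FPKM in Vav knockouts, against 6.47, 5.71 and 6.01 FPKM in WT (V). Cd79b passed the filter only through WT (V). The macrophage and granulocyte list summed to 4.33 to 28.5 FPKM in transplanted Vav knockouts, 4.83 to 11 FPKM in Vav knockouts and 2.19 to 5.49 FPKM in WT (V) at 8 weeks, with 0 of 3 tested called in either. In Vav knockouts at 4 weeks that list summed to 3.73 to 4.5 FPKM, against 2.28 to 3.0 FPKM in WT (V). There 1 of 2 tested, Itgam, was called higher (0.90, SE 0.110, limma adjusted p = 0.00512). Itgam stayed under 1 FPKM in WT (V) and passed the filter only through the knockouts. Of all genes tested, 7.63% were called higher and 6.08% lower at 4 weeks. The dendritic list (1.62 to 3.25 FPKM in Vav knockouts and 0.658 to 0.873 FPKM in WT (V) at 4 weeks), the thymic stroma list (11.7 to 13.7 against 9.2 to 10.9 FPKM) and the erythroid list (3.45 to 9.7 against 6.23 to 8.41 FPKM) had 1 of 1, 1 of 2 and 0 of 2 tested called higher there, and the other tested gene of the thymic stroma list, Epcam, was called lower (-0.80, SE 0.0814, adjusted p = 0.00326). At 8 weeks the dendritic list summed to 3.03 to 5.53 FPKM in transplanted Vav knockouts, 6.33 to 9.21 FPKM in Vav knockouts and 2.42 to 2.59 FPKM in WT (V), with H2-Ab1 called higher in both comparisons with WT (V). H2-Ab1, also the dendritic gene called at 4 weeks, stayed under 1 FPKM in WT (V) at both ages. It passed the filter only through libraries with Cre. Epcam at 4 weeks stayed under 1 FPKM in Vav knockouts and passed the filter only through WT (V). The erythroid list summed to 29.1 to 72.6 FPKM in transplanted Vav knockouts, 3.52 to 16.7 FPKM in Vav knockouts and 14.2 to 31.8 FPKM in WT (V), with 0 of 3 tested called in either. The part of these lists in the members' levels was not tested.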

How the data were processed

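The labels' protocols name RNeasy mini kits for total RNA and a NuGEN Ovation Ultralow kit for the libraries. Values are FPKM, which the authors deposited in 3 tables (Vav groups at 4 weeks, Lck groups at 4 weeks, 8-week groups), which were treated as separately normalized. Trimmomatic 0.33, STAR, HTSeq 0.6.1, DESeq2 and the build mm10 are named without a role, per the submitters' processing notes; the gene lengths, annotation and strand setting behind the FPKM are not given in the sources used here. Of 43430 genes, 42462 were matched to a GENCODE M21 symbol, which also gave positions; 0 columns of sample values were left unused.

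Between 49.26% and 57.32% of low values came out as whole reads within 0.03 using annotated exon lengths, too few to recover counts for all genes, so no count model was used. For 6 members the low values lay within 0.109 reads of whole multiples of a step (0.268 for Sox13, whose reads are not given), which gave the reads named. That step was 1.79 and 1.835 times the value expected from the annotated length for Tcrg-C1 and Tcrg-C2 and 0.81 times for Tcrg-C4. Such reads cover counting error only.

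limma 3.58.1 (trend) in R 4.3.3 was fitted to log2(FPKM + 1) of genes that reached 1 FPKM in 3 libraries or more of every table used: 6 libraries per 4-week comparison, 10 for the 8-week table and 12 for each difference of effects. On simulated data the fits recovered known changes set in genes of high mean level. This covered Vav and Lck knockouts at 4 weeks, Vav knockouts at 8 weeks and the Vav effect minus the Lck effect. Changes in low genes were not simulated. Nor were the comparisons of transplanted Vav knockouts and the 8-week effect minus the 4-week effect. Constant segments were aligned with Biopython 1.88. Alternatives were a pseudocount of 0.1, no filter, scaling to a common sum or by median-of-ratios, the replicate number as a block, each library left out, and fits of only the groups compared. The members and gene lists were chosen with earlier results of these data known. Named were all members and, from each other list, up to 4 called genes per comparison with the largest change, plus genes named for their level after values were seen. Genes most like a member were to be named for members called in 2 or more of the 5 comparisons between groups (differences of effects not counted); as none was (0), the rule was widened afterwards to the 5 members called in 1.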

Additional observations from a re-analysis of the deposited data

Results flagged for a closer look

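The measured members and the 8 gamma and 9 delta segments analysed were scanned in the transplanted Vav knockouts. In 3 segments the highest library lay far from the other 3 by Dixon's test on FPKM. Chance gives such a gap in about 1 of 20 groups of normally distributed values. These FPKM were skewed (Tcrg-V4 had 21.4, 168, 2.61 and 0.149 FPKM) and many segments were scanned, so that rate need not hold here. Tcrg-V4 was at 168 FPKM and Tcrg-V3 at 3.06 FPKM, both in transplanted replicate 2, and Tcrg-V5 was at 55.0 FPKM in transplanted replicate 1.

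The effect of the deletion differed between the Cre drivers at 4 weeks for Tcrg-C2, by 2.79 in log2(FPKM + 1) (limma interaction, adjusted p = 0.015), and for Trgv2, by 2.17 (limma interaction, adjusted p = 0.00828). Both were higher in 3 of 3 Vav knockouts than in any WT (V) library and overlapped between Lck knockouts and WT (L).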

How the results depend on the processing

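The members called at 4 weeks in Vav knockouts numbered 4 in each alternative run except without Vav knockout replicate 2, where they were 5. In Vav knockouts at 8 weeks it was 3 in place of 0 when only the groups compared were fitted. In transplanted Vav knockouts against WT (V) it was 0 to 2 in place of 1 when single libraries were left out. For the Vav effect minus the Lck effect it was 1 in place of 2 with a pseudocount of 0.1. Correlations of same-numbered deviations were -0.109 to 0.0696 for the Vav groups at 4 weeks, where the replicate numbers of the titles did not pair the libraries. They were -0.0139 to 0.181 for the Lck groups and -0.0748 to 0.129 at 8 weeks. The 0.181, of replicate 1, was the highest of any Lck knockout and WT (L) pair, so pairing there was not settled. With the replicate block the members called in Vav knockouts at 4 weeks remained 4. The block changed no member's call in the other comparisons, but lowered the genes called higher and lower to 501 and 393 there (826 and 658 without it), to 0 and 4 in Lck knockouts (22 and 88), to 288 and 280 in Vav knockouts at 8 weeks (541 and 518), to 287 and 281 in transplanted Vav knockouts (534 and 535), to 75 and 73 for the Vav effect minus the Lck effect (174 each) and to 591 and 587 for the 8-week effect minus the 4-week effect (930 and 983). Leaving out single libraries gave as few as 332 genes called higher at 4 weeks in Vav knockouts (without WT (V) replicate 2), 0 in Lck knockouts (without WT (L) replicate 1), 133 in Vav knockouts at 8 weeks (without WT (V) replicate 1), 148 in transplanted Vav knockouts (without WT (V) replicate 2), 93 for the Vav effect minus the Lck effect (without WT (V) replicate 3) and 508 for the 8-week effect minus the 4-week effect (without WT (V) replicate 2). Without transplanted replicate 3 there were 2105 in transplanted Vav knockouts and 1902 in Vav knockouts at 8 weeks. Fitting only the groups compared gave 2598 higher and 2489 lower in Vav knockouts at 8 weeks and 258 and 264 in transplanted Vav knockouts, and dropping the filter gave 328 higher in Vav knockouts at 8 weeks and 7 higher and 56 lower in Lck knockouts. Scaling to a common sum shifted the median of all genes to -0.12 in Vav knockouts at 8 weeks. The causes of these moves were not tested. Members under about 1 FPKM rest on few reads, which limits Sox13, Blk and the WT levels of Cd163l1.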
